A study of Mus musculus with 2 samples.

Results

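Chromatin modifiers are the enzymes and adaptor proteins that write, read and remove chemical marks on histones and DNA or that move nucleosomes, and this account describes DNase I accessibility over 52 genes that encode them. The genes were chosen by name, as members of the Polycomb complexes, histone methyltransferases, histone demethylases, deacetylases, DNA methylation enzymes and ATP-dependent remodelers, by a rule that used no measured value, although earlier results of these data were known when they were listed. All 52 were found among the 22605 gene symbols of the deposited table, and for each symbol the listed transcript that covered the most windows was used. The cells were M1, a mouse myeloid progenitor leukemia line that differentiates toward macrophages when exposed to interleukin-6 (IL-6). One library came from untreated M1 cells and 1 library from M1 cells kept in medium with IL-6 for 4 to 5 days (M1+IL-6), both at passages 15 to 18. No other genotype, agent or time point was present, and the labels described no clone or pooling of cultures.

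DNase I cuts DNA where nucleosomes are absent or loose, so sequencing small fragments cut at both ends (DHS-seq) collects reads at open promoters and enhancers. Among the genes described here, Polycomb repressive complex 2 methylates histone H3 at lysine 27, and Polycomb repressive complex 1 reads that mark and ubiquitinates histone H2A. Other methyltransferases mark H3 at lysines 4, 9, 36 or 79. The Kdm demethylases described here take methyl groups off lysines 4, 9, 27 or 36. Deacetylases remove the acetyl groups found at active genes, and Dnmt and Tet enzymes add and oxidize methyl groups on cytosine. Several of the genes, among them Asxl1, Ezh2, Tet2 and Dnmt3a, are recurrently mutated in myeloid malignancy.

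The deposited value was a mean number of reads over all 700-bp windows that a transcript's coding span touched, with the standard deviation (SD) between those windows, so that levels can be compared between genes per length. Introns inside the span were included, and a transcription start site was included only where a window reached it. One read in the M1 library counted as 1 and one read in the M1+IL-6 library as 1.04, which allowed the reads themselves to be recovered. The libraries held 8999768 (M1) and 8437259 (M1+IL-6) reads over non-overlapping coding spans, or 7.60 and 7.13 reads per window, and the 52 spans together held 37861 and 30175 reads in 3874 windows. With 1 library per condition there was no replicate error and no test of any difference. The intervals given below are 95% exact binomial (Clopper-Pearson) intervals of the ratio of M1+IL-6 to M1 and cover counting error only, and PCR copies of a fragment were not told apart from independent fragments. In a population of cells, fewer cells with an open site and less cutting in each cell cannot be told apart. As a check of the label, 9 myeloid marker genes had a median of 10.8 reads per window in M1, against 8.74 for T-cell, 8.71 for B-cell, 11.2 for erythroid and 5.88 for fibroblast markers. These coding-span values therefore did not single out the myeloid list.

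Signal over the chromatin modifier genes was broadly present in M1 cells. It was lower after IL-6 at the genes strongest in M1, and likewise over all genes of high signal. The M1 signal is the denominator of the ratio, so ordering genes by it favours lower ratios at the top. Over the 52 genes the mean signal ranged from 0.307 reads per window at Kdm6a to 95.8 at Cbx8 in M1, and from 0.144 at Kdm6a to 28.7 at Hdac10 in M1+IL-6. The median was 9.41 reads per window in M1 and 7.60 in M1+IL-6, whereas over all genes it was 7.75 and 8.14. The median log2 ratio of M1+IL-6 to M1 was −0.25 for the 52 genes and 0.03 for the 18472 genes whose reads exceeded 21 in at least 1 library. All 52 genes passed that filter.

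At least 1.5-fold lower signal after IL-6 was measured at 16 of the 52 genes, beside a background of 23.2% of all genes. At least 1.5-fold higher signal was measured at 1, Kdm5b, beside a background of 10.8%. The 16 were Suz12, Cbx6, Cbx7, Cbx8, Asxl2, Setd1b, Suv39h1, Suv39h2, Ehmt2, Kdm2a, Kdm6a, Kdm6b, Hdac2, Hdac5, Hdac10 and Dnmt3a. The 5 genes Cbx6, Cbx8, Asxl2, Kdm6a and Hdac10 were at least 2-fold lower (background 13.4%) and 0 were 2-fold higher (background 1.71%). The ratio was below 1, by any amount, at 39 genes (background 48.3%). The counting interval lay wholly below 1 for 27 genes (background 34.4%) and wholly above 1 for 8 (background 29%). Just inside the 1.5-fold limit were Ehmt2 and Suv39h1, with ratios of 0.659 and 0.660, and just outside it Dnmt1 and Ring1, with 0.670 and 0.676. All directions in this account are on the scale of the authors' table. If the libraries were instead set equal over single windows with at least 22 reads in both, every log2 ratio rose by 1.83, no gene was 1.5-fold lower, 51 were 1.5-fold higher and Cbx8 alone stayed below 1.

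**Figure D1:**
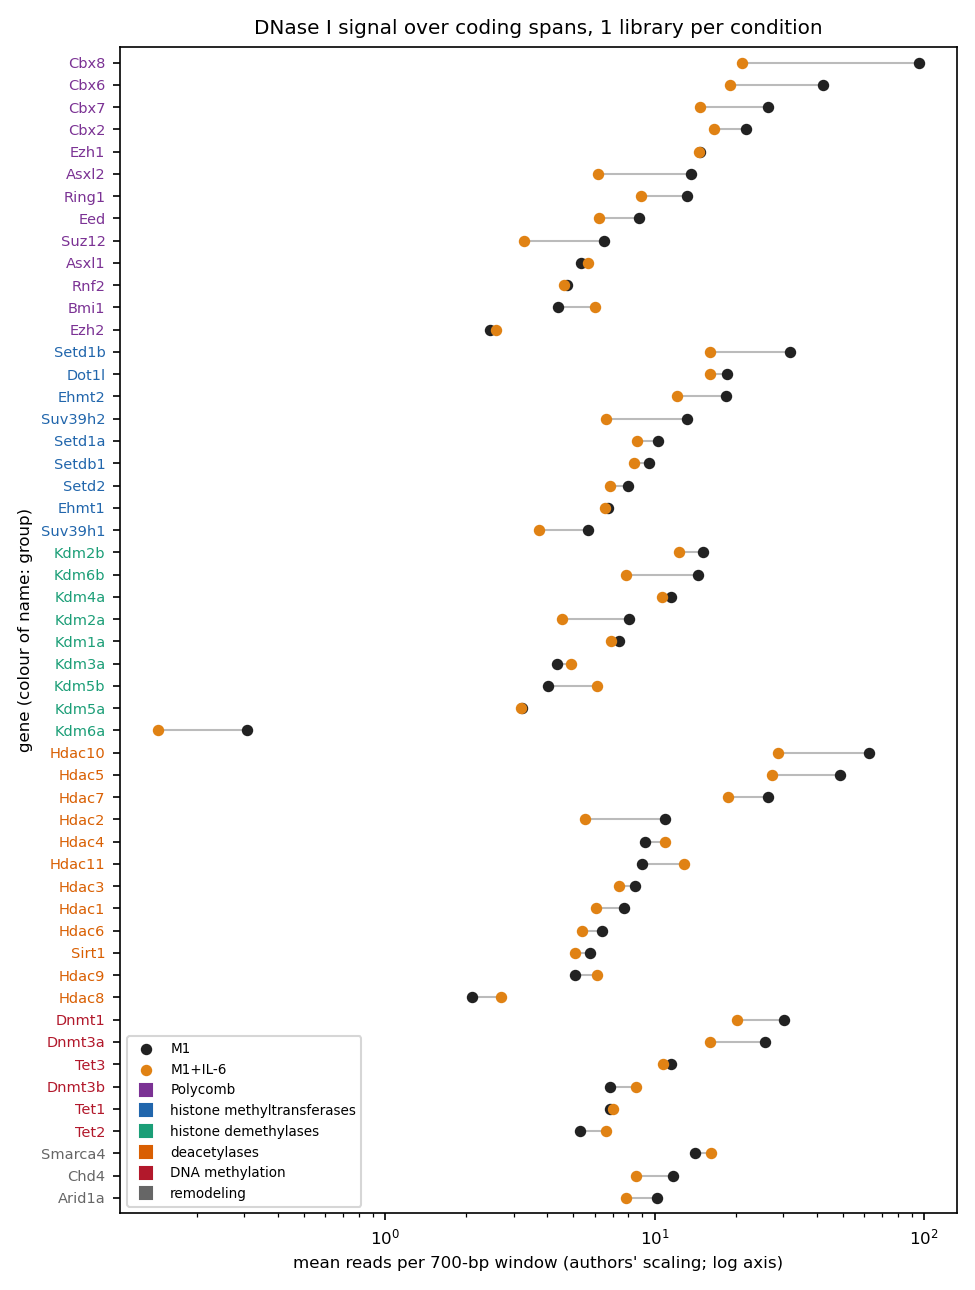
DNase I signal of each gene in reads per 700-bp window (log axis), with M1 in black and M1+IL-6 in orange, 1 library each on the authors' scaling, and gene names coloured by group. Cbx8, Hdac10 and Hdac5 had the highest M1 values (95.8, 62.3 and 48.6), and Kdm6a (0.307) lay far below every other gene.

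The position of a gene on the signal scale went with its ratio, among the chromatin modifiers and among all genes alike. For genes whose average over both libraries was under 5 reads per window, the median log2 ratio was −0.02 for the chromatin modifiers (n = 8) and 0.37 for all genes. It was −0.19 (n = 22) against 0.17 from 5 to 10 reads, −0.21 (n = 13) against −0.11 from 10 to 20, −0.83 (n = 7) against −0.94 from 20 to 40, and −1.65 (n = 2) against −1.76 above 40. The chromatin modifiers thus lay close to all genes of like signal in the bands from 10 reads upward and below them in the bands under 10 reads. Across the 52 genes the SD between windows divided by the mean in M1 had a Spearman correlation of −0.59 with the log2 ratio (−0.48 over the 18472 genes), which is a description over genes that share the same pair of libraries. The same M1 reads enter both values, so a negative correlation is favoured by construction.

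**Figure D2:**
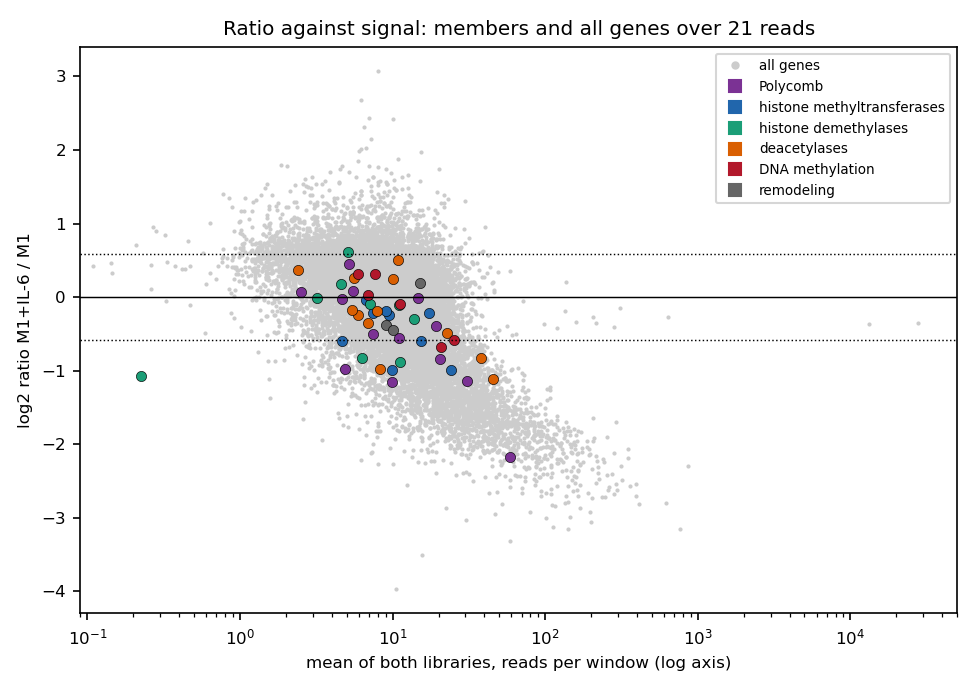
Log2 ratio of M1+IL-6 to M1 against the average of both libraries in reads per window (log axis), for all 18472 genes over 21 reads (grey) and the 52 chromatin modifier genes (coloured by group), with dotted lines at 1.5-fold on the authors' scaling. The coloured points follow the downward bend of the grey cloud above 20 reads per window, and Kdm6a stands apart at the left.

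Because the table gave both a mean and an SD, the number of reads in the strongest window of each span could be bounded, separately in each library. At least 1 window above 21 reads, the count that the study used to call a hypersensitive site, was required in M1 at 29 of the 52 genes (background 35%) and a window above 50 reads at 16 (background 19.3%). In M1+IL-6 a window above 21 scaled reads was required at 13 (background 18.1%) and one above 50 at none (background 2.33%). At 20 of the 52 genes the smallest possible strongest window in M1 exceeded the largest possible one in M1+IL-6, beside a background of 26.5%. The reverse held at 1 gene, Bmi1. These backgrounds cover all 22605 genes, with those under the filter of 21 reads included, whereas all 52 genes passed it. A longer span also has more windows in which a strong one can occur. The median span was 47.5 windows for the 52 genes and 16 for all genes, and the shares were not matched for this. Asxl2 had the highest lower bound, with 439 to 806 reads in M1 and 40.5 to 155 scaled reads in M1+IL-6. The SD between windows was lower in M1+IL-6 at 44 of the 52 genes and at 55.8% of all genes. The latter share includes genes under the filter and genes of 1 window, which cannot count as lower. By average over both libraries, the shares were 87.5% (all genes 31.5%) under 5 reads per window and 77.3% (53.5%) from 5 to 10. They were 84.6% (70.0%) from 10 to 20, 100% (86.5%) from 20 to 40 and 100% (87.8%) above 40. Of the 29 genes with a window above 21 reads in M1, 14 were at least 1.5-fold lower and their median log2 ratio was −0.58 (all genes of that kind −0.62, 4101 of 7908). At the other 23 the mean and SD did not require such a window in M1, though they allowed one at some. Of these, 2 were lower, Suv39h1 and Kdm6a, and the median was 0.07 (all genes of that kind 0.32, 188 of 10564). This split used the M1 reads, which are also the denominator of the ratio. It therefore favours lower ratios in the first set by construction and is no separate support for a fall after IL-6.

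**Figure D3:**
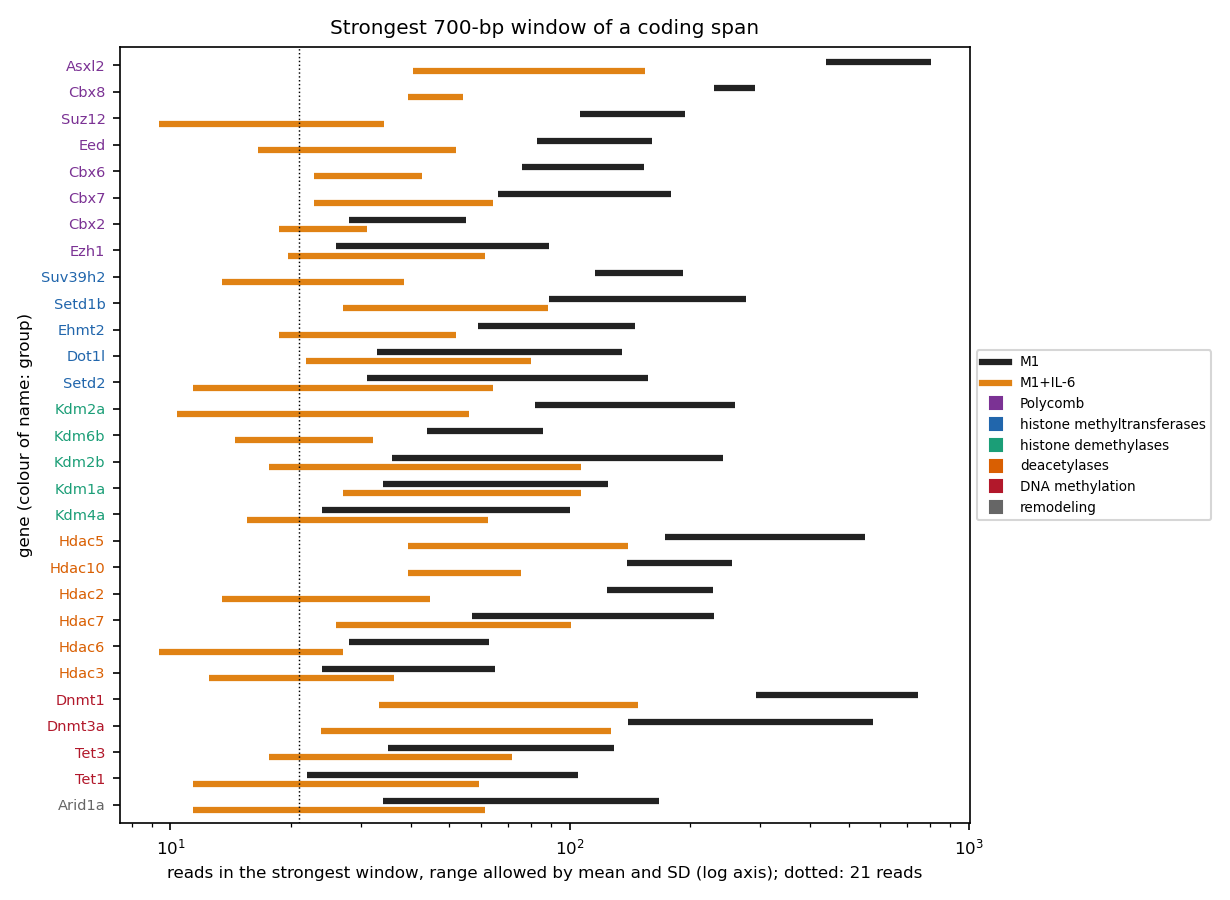
Range of reads that the mean and SD allow for the strongest 700-bp window (log axis, authors' scaling), in M1 (black) and M1+IL-6 (orange), for the 29 genes in which a window above 21 reads was required in M1 (dotted line at 21). The black bars of Asxl2 (439 to 806) and Dnmt1 (294 to 748) reach farthest to the right, and the orange bars end at or below 155.

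Where transcripts of a gene ended at different 5′ positions, subtracting one row from another gave the reads of the 5′ stretch alone. Such a stretch could be separated for 21 genes, and both parts passed the filter of 21 reads for 19. The stretch held the annotated start site in 11 of the 19, and its length ranged from 1 window to 208 windows (Hdac4). In 15 of the 19 the 5′ stretch had the lower ratio of the pair (background 70.6% of genes with such a stretch), and in 12 it held more M1 reads per window than the rest (background 62.7%). The median log2 ratio was −0.71 for the 5′ stretches and −0.04 for the remaining windows, against −0.18 and 0.15 over all genes.

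For Suv39h2, Kdm1a, Kdm2b and Ehmt2 the stretch was a single window that held the annotated start site. At Suv39h2, a methyltransferase of H3 lysine 9, this window (chr2:3392201-3392900, build NCBIM37) held 188 reads in M1 and 32 in M1+IL-6, a ratio of 0.177 (0.117 to 0.258), whereas its other 24 windows gave 0.928 (0.725 to 1.19). At Kdm1a, the H3 lysine 4 demethylase LSD1, the window (chr4:136158401-136159100) held 112 reads in M1 and 22 in M1+IL-6, a ratio of 0.204 (0.123 to 0.324), and the other 74 windows a ratio of 1.13 (0.989 to 1.29). The start-site window thus moved apart from the rest of the span at both genes, and at Kdm1a the whole-span ratio of 0.940 did not show it. At Kdm2b, an H3 lysine 36 demethylase that also recruits Polycomb complexes to CpG islands, the window (chr5:123438701-123439400) held 47 and 16 reads, a ratio of 0.353 (0.187 to 0.635), and the window next to it inside the gene 69 and 20 reads, a ratio of 0.301 (0.173 to 0.501). At Ehmt2 the start-site window held 27 and 13 reads, with an interval of 0.237 to 1.00 for the ratio of 0.50. Across all genes, 258 such single start-site windows could be separated, with a median of 134.5 reads in M1, a median log2 ratio of −2.03 and with 96.9% of them at least 1.5-fold lower after IL-6 and 92.6% at least 2-fold lower. On the authors' scaling, a lower start-site window was therefore the rule among the genes in which it could be separated. Scaling over single windows adds 1.83 to every log2 ratio, nearly the size of that median fall, and the shares lower were not tested on it. The read filter can also admit a weak window through its higher library alone. The Ehmt2 window, with 27 and 13 reads, passed through M1 only, which favours a lower ratio. Kdm1a, Kdm2b and Ehmt2 were picked out here after their values had been seen.

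The bases just upstream of a start site are shown for the genes in which such windows were measured or the signal of a group was highest. They are the 200 bases before the annotated start, printed 5′ to 3′ on the minus strand, which is the coding strand of all 5 genes, read from build NCBIM37 and lying inside the listed windows and outside annotated exons. Capitals mark matches to a GC box (GGGCGG or CCGCCC on the printed strand) or a CCAAT box (CCAAT or ATTGG). Suv39h2 and Kdm1a have the measured start-site windows, Cbx8 and Dnmt1 had the highest M1 signal of their groups, and Arid1a the highest of its group among those whose windows held these bases.
Suv39h2, chr2:3392304-3392503: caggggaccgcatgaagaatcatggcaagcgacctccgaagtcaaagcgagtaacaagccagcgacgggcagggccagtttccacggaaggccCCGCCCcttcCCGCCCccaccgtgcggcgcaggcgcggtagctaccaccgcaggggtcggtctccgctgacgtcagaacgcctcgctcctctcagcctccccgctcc
Kdm1a, chr4:136158639-136158838: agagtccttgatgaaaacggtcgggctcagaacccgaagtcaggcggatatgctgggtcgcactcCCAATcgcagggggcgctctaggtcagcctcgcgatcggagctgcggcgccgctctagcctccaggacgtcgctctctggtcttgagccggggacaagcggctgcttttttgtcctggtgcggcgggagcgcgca
Cbx8, chr11:118902284-118902483: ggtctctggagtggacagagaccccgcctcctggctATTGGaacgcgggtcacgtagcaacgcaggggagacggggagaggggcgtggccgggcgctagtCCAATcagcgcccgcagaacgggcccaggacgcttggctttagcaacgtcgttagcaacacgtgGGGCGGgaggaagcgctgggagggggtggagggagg
Dnmt1, chr9:20757318-20757517: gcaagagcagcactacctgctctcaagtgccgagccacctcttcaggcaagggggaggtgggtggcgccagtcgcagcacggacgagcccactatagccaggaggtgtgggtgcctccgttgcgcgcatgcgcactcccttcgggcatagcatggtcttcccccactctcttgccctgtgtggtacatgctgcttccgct
Arid1a, chr4:133309527-133309726: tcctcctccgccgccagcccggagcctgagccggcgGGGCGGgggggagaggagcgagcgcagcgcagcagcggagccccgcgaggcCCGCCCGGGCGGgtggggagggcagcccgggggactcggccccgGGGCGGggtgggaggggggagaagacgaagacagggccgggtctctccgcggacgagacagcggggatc

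These stretches hold 11 (Dnmt1) to 25 (Arid1a) CpG dinucleotides, the sites that DNA methyltransferases act on. Over the 52 genes the median was 14.5 CpG per 200 upstream bases, against 7 over the 22587 genes that could be read, and 40 of the 52 had at least 10, against 43.7% of all genes. A GC box on either strand was found in 36 of the 52 (all genes 38.7%), a CCAAT box in 13 (all genes 30.4%) and the ETS core CCGGAA or TTCCGG in 9 (all genes 12.8%). In the printed stretches Arid1a has 4 GC boxes and no CCAAT box, Suv39h2 has 2 GC boxes, Cbx8 has 1 GC box and 2 CCAAT boxes, Kdm1a has 1 CCAAT box, and Dnmt1 has neither motif. Each motif was counted on its own, so matches of different motifs could share letters. A match is a description of the sequence, not a measured binding site.

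**Figure D4:**
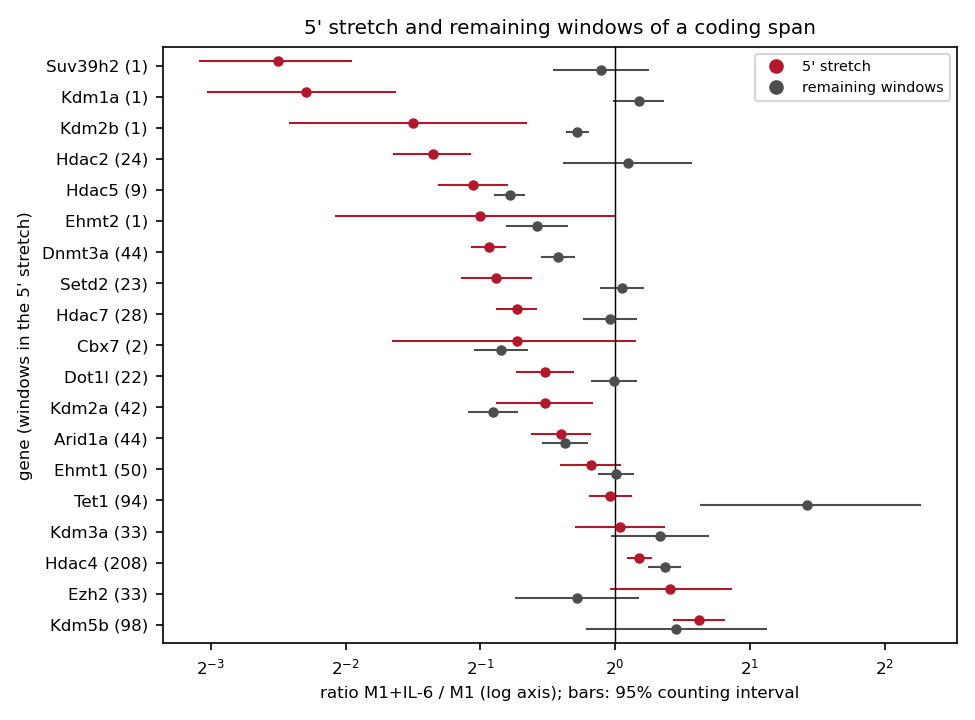
Ratio of M1+IL-6 to M1 (log axis, authors' scaling) with 95% counting intervals for the 5′ stretch (red) and the remaining windows (grey) of 19 coding spans, with the number of windows in the 5′ stretch after each name. The red points of Suv39h2 (0.177) and Kdm1a (0.204) lie farthest left while their grey points lie near 1, and for Cbx7, Kdm2a, Ezh2 and Kdm5b the red point lies to the right of the grey.

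The 13 Polycomb genes had a median log2 ratio of −0.50, with 5 of them at least 1.5-fold lower (background 23.2%). It was the lowest median of the 6 groups, but with the row of fewest windows it was −0.27, above the −0.38 of the histone methyltransferases. The chromobox genes of Polycomb repressive complex 1, whose proteins bind methylated lysine 27, carried the highest signal of the group. Cbx8 (chr11:118899991-118902164) held 383 reads in M1 and 81 in M1+IL-6 over 4 windows, or 95.8 (SD 131) and 21.02 (SD 22.3) reads per window, a ratio of 0.220 (0.171 to 0.280). It was both the highest M1 value and the lowest ratio among the 52 genes. Most of it in M1 sat in 1 window of 230 to 291 reads, and the strongest window in M1+IL-6, not known to be the same one, held 39.5 to 54.0 scaled reads. Cbx6 held 421 and 184 reads over 10 windows, or 42.1 (SD 39.4) and 19.1 (SD 8.34) per window, a ratio of 0.454 (0.379 to 0.541), but all 10 windows also belonged to the listed span of Npcd, so these reads cannot be assigned to Cbx6 alone. Cbx7 held 632 and 340 reads, or 26.3 (SD 32.8) and 14.7 (SD 10.6) per window, a ratio of 0.559 (0.488 to 0.638). Its 2 most 5′ windows held 31 and 18 reads, fewer per window (15.5 in M1) than the rest of the span (27.3). Cbx2, on chromosome 11 like Cbx8, held 218 and 160 reads, a ratio of 0.762 (0.617 to 0.939).

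The catalytic pair and the core of that complex had less signal. Ring1 and Rnf2 encode the alternative ubiquitin ligase subunits. Ring1 held 66 and 43 reads over 5 windows, or 13.2 (SD 6.26) and 8.93 (SD 4.06) per window, and Rnf2 held 52 and 49 reads over 11 windows, or 4.73 (SD 2.10) and 4.62 (SD 3.55). The ratios were 0.676 (0.450 to 1.01) and 0.978 (0.648 to 1.47), and both intervals included 1. Bmi1, the partner subunit needed for self-renewal of hematopoietic stem cells, held 22 and 29 reads over 5 windows, or 4.40 (SD 1.52) and 6.02 (SD 3.84) per window. Its ratio of 1.37 was the highest of the group, and its interval of 0.759 to 2.50 shows how little 22 reads can resolve. The windows of Bmi1, Ring1 and Rnf2 did not reach their start sites.

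Among the subunits of Polycomb repressive complex 2, the scaffold Suz12 and the methyl-lysine reader Eed were lower after IL-6 and the catalytic pair Ezh1 and Ezh2 lay near 1. Suz12 held 369 reads in M1 and 180 in M1+IL-6, or 6.47 (SD 25.5) and 3.28 (SD 4.21) per window, a ratio of 0.506 (0.421 to 0.607), with 106 to 195 of the M1 reads in 1 window. Eed held 325 and 221 reads, a ratio of 0.706 (0.592 to 0.840), with 83 to 161 of its M1 reads in 1 window. Ezh1 held 545 and 521 reads over 37 windows, or 14.7 (SD 12.6) and 14.6 (SD 7.93) per window, a ratio of 0.992 (0.878 to 1.12). Ezh2, its paralog that predominates in dividing cells, held 167 and 169 reads over 68 windows, or 2.46 (SD 2.29) and 2.58 (SD 2.13), a ratio of 1.05 (0.843 to 1.31). Per window, Ezh2 thus had the lower signal of the paralogs in both libraries. Neither span reached its start site, so promoter windows were not part of these values.

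Asxl1 and Asxl2 encode related scaffolds of the Polycomb repressive deubiquitinase, and their values differed. Asxl2 held 1494 reads in M1 and 646 in M1+IL-6 over 109 windows, or 13.7 (SD 76.6) and 6.15 (SD 14.4) per window, a ratio of 0.449 (0.409 to 0.493). Between 439 and 806 of the 1494 M1 reads lay in 1 window, and 1 of its 109 windows was shared with 1110002L01Rik. Asxl1 held 428 and 438 reads over 80 windows, a ratio of 1.06 (0.928 to 1.22), and no window above 46 reads was possible in M1. The windows of Asxl2 held its start site and those of Asxl1 did not.

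All 9 histone methyltransferase genes had ratios below 1 (background 48.3%), with a median log2 ratio of −0.25. Of the 9, 4 were at least 1.5-fold lower (background 23.2%). Setd1b, which encodes a methyltransferase of H3 lysine 4, had the highest signal of the group (chr5:123592966-123616015), with 1086 and 524 reads, or 31.9 (SD 43.1) and 16.0 (SD 12.8) per window, a ratio of 0.501 (0.450 to 0.556). Setd1a, its paralog, held 318 and 258 reads, a ratio of 0.842 (0.712 to 0.996). Setd2, the enzyme of H3 lysine 36 trimethylation, and Dot1l, that of lysine 79, had whole-span ratios of 0.859 (0.781 to 0.944) and 0.862 (0.786 to 0.945). Within Setd2 the first 23 windows held 350 and 183 reads, a ratio of 0.543 (0.451 to 0.651), and the other 100 windows a ratio of 1.03 (0.925 to 1.16). Within Dot1l the first 22 windows had a ratio of 0.697 (0.600 to 0.807) and the remaining 33 a ratio of 0.994 (0.882 to 1.12). In both genes the lower signal after IL-6 therefore lay in the 5′ part that contained the start site.

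Of the 5 methyltransferases of H3 lysine 9, the mark of heterochromatin, 3 were at least 1.5-fold lower (background 23.2%). Suv39h2 (chr2:3375895-3392218) held 330 and 159 reads, or 13.2 (SD 37.4) and 6.60 (SD 6.82) per window, a ratio of 0.50 (0.411 to 0.606), and owed 188 of its M1 reads to the start-site window. The 2 windows at its 3′ end were shared with Dclre1c. Suv39h1, its X-linked paralog, held 96 and 61 reads, or 5.65 (SD 6.02) and 3.73 (SD 2.23) per window, a ratio of 0.660 (0.471 to 0.919), and its windows did not reach the start site. Ehmt2 (G9a) held 424 and 269 reads, or 18.4 (SD 27.9) and 12.1 (SD 8.77) per window, a ratio of 0.659 (0.563 to 0.769). Ehmt1 (GLP), with which G9a forms a heterodimer, held 1234 and 1153 reads over 183 windows, or 6.74 (SD 5.73) and 6.54 (SD 4.26), and its ratio of 0.970 (0.894 to 1.05) was the highest of the group. Setdb1, which serves the silencing of retroelements, had a ratio of 0.879 (0.765 to 1.01).

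The histone demethylases had a median log2 ratio of −0.11 and contained the only member that was 1.5-fold higher after IL-6 on the authors' scaling. Kdm5b, an H3 lysine 4 demethylase (chr1:136456916-136527951), held 409 reads in M1 and 601 in M1+IL-6, or 4.01 (SD 3.18) and 6.12 (SD 4.55) per window, a ratio of 1.53 (1.34 to 1.73). Its log2 ratio of 0.61 became 0.55 with no scaling and 0.44 with the row of fewest windows, both short of 1.5-fold. Both its 5′ stretch of 98 windows (1.54, 1.35 to 1.76) and its last 4 windows (1.36, 0.860 to 2.18) had ratios above 1, and no window of it could hold more than 35 M1 reads. Kdm5a, its paralog, held 346 and 329 reads, a ratio of 0.987 (0.846 to 1.15). Kdm2b had the highest M1 signal of the group, with 2566 and 2011 reads, or 15.2 (SD 17.6) and 12.4 (SD 7.33) per window, a ratio of 0.814 (0.767 to 0.863). Kdm2a, which shares its CpG-binding domain, held 875 and 475 reads, or 8.03 (SD 24.5) and 4.52 (SD 5.04) per window, a ratio of 0.564 (0.503 to 0.631). In Kdm2a the 5′ stretch of 42 windows had the weaker signal (3.90 M1 reads per window against 10.6) and the higher ratio (0.696 against 0.533), so its strongest window of 82 to 260 reads lay elsewhere. The H3 lysine 9 demethylases Kdm3a and Kdm4a, with ratios of 1.13 (0.952 to 1.33) and 0.926 (0.827 to 1.04), had intervals that included 1, as did Kdm1a (552 and 500 reads, 0.832 to 1.06).

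Kdm6a (UTX) and Kdm6b (JMJD3) both remove methyl groups from H3 lysine 27 and so oppose Ezh1 and Ezh2. Kdm6b held 188 and 98 reads over 13 windows, or 14.5 (SD 21.5) and 7.83 (SD 7.47) per window, a ratio of 0.541 (0.420 to 0.694). Kdm6a (chrX:17740132-17855781) held 51 and 23 reads over 166 windows, or 0.307 (SD 1.98) and 0.144 (SD 0.907) per window, a ratio of 0.468 (0.273 to 0.780). It was the lowest level of the 52 genes in both libraries. At least 143 of its 166 windows had no read in M1 and at least 157 had none in M1+IL-6, while the strongest window of each library held 14 to 25 reads in M1 and 6 to 10 in M1+IL-6.

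All reads of Kdm6a lay in the 119 windows at its 5′ end (chrX:17740101-17823400), with 51 in M1 and 23 in M1+IL-6. The 47 windows at its 3′ end held 0 reads in both libraries, which allows at most 0.0638 reads per window in each. Of the 32-base words of that part, 97.3% occurred once in the reference, beside 96.6% over the whole span. The part of alignment in the 0 reads was not tested. Neighbouring spans had reads, with 201 and 70 at Fundc1 over 22 windows, 7 and 11 at Dusp21 over 2, 134 and 112 at 4930578C19Rik over 62, and 247 and 368 at Efhc2 over 268. The 117 spans of at least 100 windows on the X chromosome had a median of 1.44 reads per window in M1. Of the 6476 stretches of at least 47 windows that could be separated in the genome, 12 held no read in either library, 6 of them among the 270 on the X. The Y-linked paralog Uty held 2 and 3 reads over 211 windows. The copy number of Kdm6a in the M1 line was not tested, and the 47-window stretch was picked out after its values had been seen.

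The 12 deacetylase genes split in direction, with a median log2 ratio of −0.22. Among them 3 were at least 1.5-fold lower (background 23.2%) and 4 had an interval above 1 (background 29%). Hdac10 (chr15:88953896-88958878) had the highest M1 signal of the group and the lowest ratio, with 561 and 249 reads over 9 windows, or 62.3 (SD 72.9) and 28.7 (SD 17.8) per window, a ratio of 0.461 (0.395 to 0.536). Its most 3′ window, which it shared with Tubgcp6, held 120 of the 561 M1 reads and 42 of the 249 M1+IL-6 reads. Hdac5, a class II deacetylase shuttled out of the nucleus by phosphorylation, held 2091 and 1134 reads, or 48.6 (SD 78.4) and 27.4 (SD 17.6) per window, a ratio of 0.563 (0.523 to 0.606). Its 5′ stretch of 9 windows had a ratio of 0.482 (0.402 to 0.576) and 43.3 M1 reads per window, and the remaining 34 windows a ratio of 0.582 (0.537 to 0.630) and 50.03 reads per window, so both parts were lower. Hdac7, of the same class, held 1429 and 978 reads, a ratio of 0.711 (0.654 to 0.771), with 0.602 (0.543 to 0.667) in its 28 most 5′ windows and 0.973 (0.846 to 1.12) in the other 26, 2 of its windows being shared with Gm17532. Hdac4 and Hdac9, the class II genes with the longest spans (308 and 461 windows), had ratios of 1.19 (1.13 to 1.25) and 1.20 (1.14 to 1.27). Hdac6, the cytoplasmic tubulin deacetylase, held 160 and 130 reads (0.664 to 1.07), but 65 and 18 of them lay in the 2 windows nearest its start, a ratio of 0.287 (0.160 to 0.491). These 2 windows are not among the 5′ stretches counted above and were picked out after their values had been seen.

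Hdac1 and Hdac2 are the class I catalytic subunits of the Sin3, NuRD and CoREST complexes. Hdac2 held 436 and 213 reads, or 10.9 (SD 35.5) and 5.53 (SD 6.39) per window, a ratio of 0.507 (0.428 to 0.599), and Hdac1 held 293 and 222, or 7.71 (SD 8.19) and 6.07 (SD 4.31), a ratio of 0.787 (0.658 to 0.940). In Hdac2 the first 24 windows, which held the start site, had 361 and 136 reads, a ratio of 0.391 (0.319 to 0.478), and the other 16 windows a ratio of 1.07 (0.765 to 1.48). The lower signal of Hdac2 after IL-6 thus came from its 5′ part. Hdac3, the enzyme of the NCoR complex, had 220 and 185 reads, a ratio of 0.873 (0.714 to 1.07). Hdac8, on the X, had 662 and 823 reads over 316 windows, a ratio of 1.29 (1.16 to 1.43). Hdac11, the class IV enzyme, had the highest ratio of the group, with 225 and 309 reads, or 9 (SD 5.16) and 12.8 (SD 5.92) per window, a ratio of 1.43 (1.20 to 1.70). The NAD-dependent deacetylase Sirt1 had 155 and 132 reads, a ratio of 0.884 (0.696 to 1.12).

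**Figure D5:**
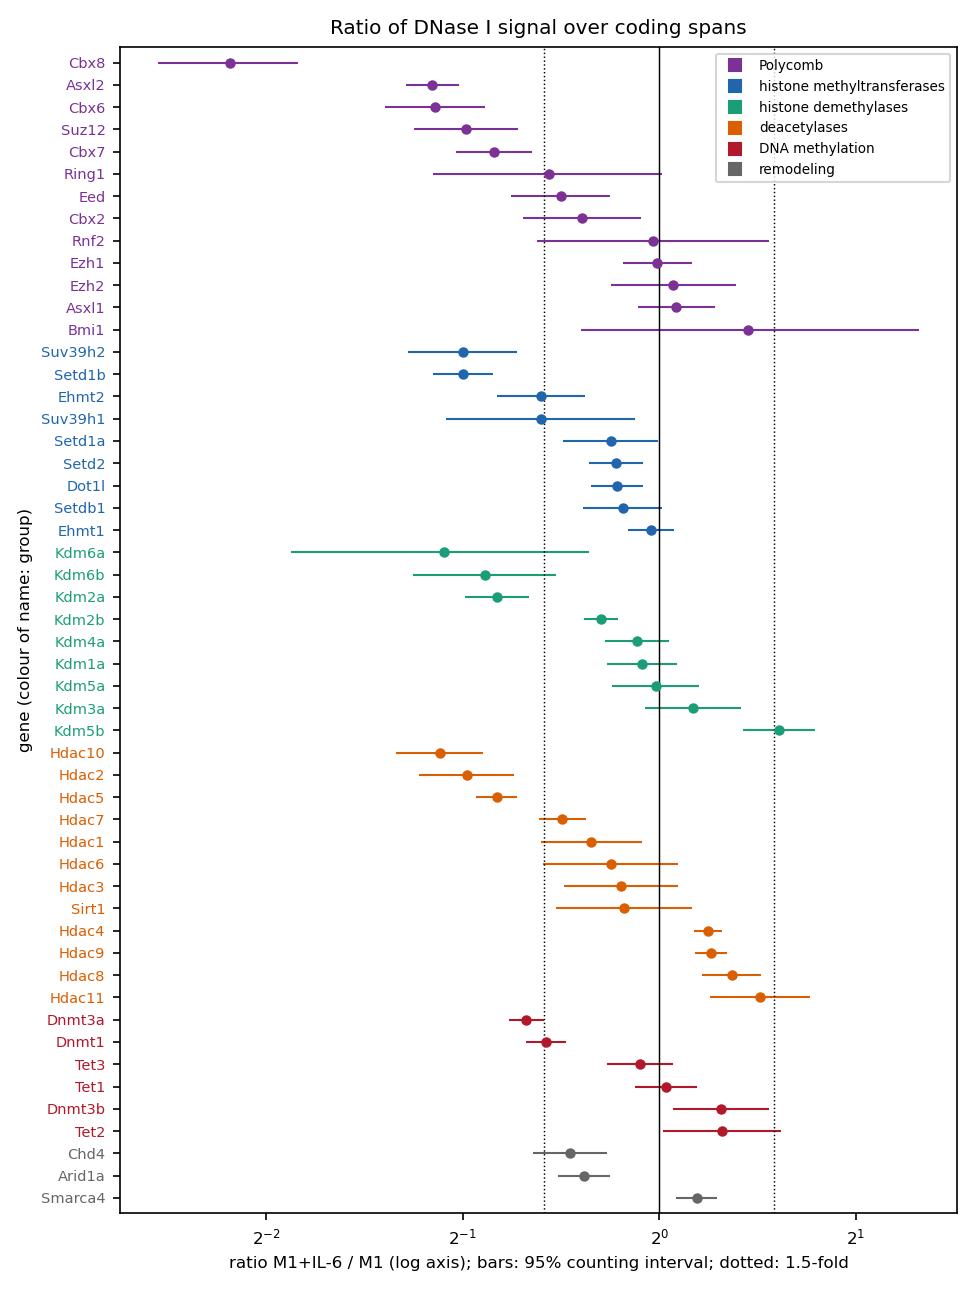
Ratio of M1+IL-6 to M1 (log axis, authors' scaling) with 95% counting intervals for the 52 genes, coloured and ordered by group, with dotted lines at 1.5-fold and a solid line at 1. Cbx8 (0.220) is farthest left, Kdm5b (1.53) is the 1 point beyond the right dotted line, and the wide bars of Bmi1, Rnf2 and Kdm6a reflect their few reads.

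Among the 6 DNA methylation genes (median log2 ratio −0.03), the intervals of Dnmt1 and Dnmt3a lay below 1 and those of Dnmt3b and Tet2 above it. Dnmt1, the maintenance methyltransferase (chr9:20711965-20757231), held 1987 and 1283 reads, or 30.1 (SD 89.8) and 20.2 (SD 16.1) per window, a ratio of 0.670 (0.624 to 0.719). One of its 66 windows held 294 to 748 of the M1 reads, and no window could exceed 148 scaled reads in M1+IL-6. Dnmt3a, a de novo methyltransferase (chr12:3835198-3907747), held 2697 and 1625 reads, or 25.7 (SD 54.3) and 16.1 (SD 10.9) per window, a ratio of 0.626 (0.588 to 0.665). Its first 44 windows had 32.9 M1 reads per window and a ratio of 0.523 (0.477 to 0.572), the other 61 windows 20.5 and 0.744 (0.682 to 0.812), so both parts were lower. Dnmt3b, the other de novo enzyme, held 253 and 303 reads, or 6.84 (SD 4.91) and 8.50 (SD 4.87), a ratio of 1.24 (1.05 to 1.48). The intervals of Dnmt3a and Dnmt3b did not overlap.

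The Tet genes encode the dioxygenases that oxidize 5-methylcytosine, and none of the 3 was past 1.5-fold. Tet2 held 169 and 203 reads, or 5.28 (SD 3.86) and 6.59 (SD 5.77) per window, a ratio of 1.25 (1.01 to 1.54). Tet3 held 620 and 558, or 11.5 (SD 16.4) and 10.7 (SD 8.48), a ratio of 0.934 (0.832 to 1.05). Tet1 held 670 and 661, or 6.84 (SD 10.1) and 7.002 (SD 5.40), a ratio of 1.02 (0.918 to 1.14). The Tet1 span was not uniform, since 2 windows near its 3′ end (chr10:62276201-62277600) held 5 reads in M1 and 31 in M1+IL-6, a ratio of 6.44 (2.48 to 21.2), and the 2 windows beyond them 14 and 18. That stretch was also chosen after its values had been seen.

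Of the 3 remodeling genes, which encode the ATPase and a DNA-binding subunit of the SWI/SNF complex and the ATPase of NuRD, none was past 1.5-fold. Smarca4 (BRG1; chr9:21437277-21507412) had the highest M1 signal and the highest ratio, with 1430 and 1572 reads, or 14.2 (SD 8.48) and 16.2 (SD 9.56) per window, a ratio of 1.14 (1.06 to 1.23). Arid1a held 1080 and 798 reads, or 10.2 (SD 15.5) and 7.82 (SD 5.25), a ratio of 0.767 (0.699 to 0.841), nearly the same in its first 44 windows (0.758) and the other 62 (0.772). Chd4 held 562 and 395 reads, or 11.7 (SD 7.997) and 8.54 (SD 6.89), a ratio of 0.730 (0.640 to 0.831), and its first 6 windows 115 and 57, a ratio of 0.515 (0.368 to 0.713). Those 6 windows are not among the 5′ stretches counted above and were picked out after their values had been seen.

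Chromosome and base composition went with the levels. The 4 members on chromosome 15 (Cbx6, Cbx7, Hdac7 and Hdac10) had a median of 34.3 reads per window in M1, on a chromosome whose genes had a median of 14.6. The 4 on the X (Suv39h1, Kdm6a, Hdac6 and Hdac8) had a median of 3.87, where the median of X genes was 1.87. Over the 52 genes the GC content of the windows had a Spearman correlation of 0.77 with M1 reads per window (0.66 over the 18472 genes), again over genes that share 1 library. The part of chromosome copy number or base composition in these values was not tested. Windows that contained the start site were available for 22 members, of which 8 were at least 1.5-fold lower (median log2 ratio −0.36), beside 3211 of 10159 genes of that kind overall (median −0.12). Of the 30 without, 8 were also lower (median −0.18), beside 1078 of 8313 overall (median 0.13).

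Further genes of the same groups lay nearer to all genes than the 52 did in the share lower and in the median, but not in the share higher. Of 102 such genes found in the table, 101 passed the filter, 24 were at least 1.5-fold lower (background 23.2%), 1 was higher (background 10.8%), and the median log2 ratio was −0.08, between −0.25 for the 52 genes and 0.03 for all genes. By group, 7 of 21 further Polycomb genes were lower, 3 of 22 methyltransferases, 1 of 10 demethylases, 5 of 16 deacetylase partners and sirtuins, 3 of 8 DNA methylation genes and 5 of 24 remodelers. Of those 22 methyltransferases, 12 had ratios below 1 and 10 above it (median log2 ratio −0.06), whereas all 9 among the 52 genes lay below 1. Mbd3, the methyl-CpG-binding domain protein of NuRD, held 1096 and 332 reads, and Mbd4, a thymine glycosylase, 1130 and 281. Kdm4d, an H3 lysine 9 demethylase, was the 1 gene past 1.5-fold in the other direction, with 24 and 49 reads. These 3 were picked out after their values had been seen.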

How the data were processed

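DNase I fragments from M1 and M1+IL-6 cells (1 library each) were sequenced, and the authors trimmed the reads and aligned them to mouse build NCBIM37 with BWA (version not given in the sources used here). The study's methods name single-read sequencing, a legend paired-end. The authors deposited the signal as the mean and SD of read counts over 700-bp windows per transcript; a further column held no values and was not used. Reads were recovered as mean × windows / 1.04 (M1+IL-6; 1 for M1), and 100% of rows gave counts within 0.05 of whole. For each gene the row with most windows was used, 0.5 reads were added for log2 ratios, and a gene was kept if its reads exceeded 21 in at least 1 library. Strongest windows were bounded from mean and SD, and stretches obtained by subtracting nested transcripts. Called means at least 1.5-fold, with no test.

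All 52 genes are named. Full values were given for the highest M1 mean, lowest and highest ratio per group, all genes past 1.5-fold and paralog pairs. For the 5′ stretches, those with most M1 reads per window per group were to be named, and for upstream bases the gene of highest M1 mean per group whose windows held them; Ehmt2, Kdm2b and Hdac10 had too few non-exonic bases, and Suv39h2 and Kdm1a were added later. The genes, groups, marker lists and further pathway genes were chosen with earlier results of these data known. Spi1 was not analysed here. Python 3.11.15, pandas 2.3.3, scipy 1.17.1 and pysam 0.24.0 were used, and scripts were tested on simulated data. Alternatives in scaling, filter, added reads, transcript row and fold were tried.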

Additional observations from a re-analysis of the deposited data

How the results depend on the processing

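Each condition had 1 library, so no result could be set against replicate error, and 51 or 23 reads, as at Kdm6a, resolve little. No paired analysis was possible because there were no replicates to pair. Of 170 alternative values for 28 results, 124 moved little, 28 moved more and 18 reversed; the 18 lie under the 2 settings below. Scaling by the median of ratios over single windows changed 16 genes lower and 1 higher to 0 and 51, the median log2 ratio from −0.25 to 1.58, and reversed Suz12 (0.85), Cbx6 (0.69), Cbx7 (0.99), Asxl2 (0.67), Setd1b (0.83), Suv39h1 (1.23), Suv39h2 (0.83), Ehmt2 (1.22), Kdm2a (1.00), Kdm6a (0.75), Kdm6b (0.94), Hdac2 (0.85), Hdac5 (1.00), Hdac10 (0.71) and Dnmt3a (1.15), since it adds 1.83 to every log2 ratio. The row with fewest windows per gene, which drops part of the span of genes with several rows, gave 10 lower, 2 higher (Kdm5b not among them), a median of −0.059 and 17 genes with a window above 21 reads in place of 29, and reversed Ehmt2 (0.38), Hdac2 (0.092) and Hdac5 (0.40); Kdm6a then had 0 reads in both libraries and no ratio. A fold of 2 gave 5 lower and 0 higher, no scaling gave 0 higher, and a limit of 50 reads gave 16 genes with such a window. The 5′ count, which a scaling cannot change, was 15 with 5 reads added and 17 without the filter. That filter and the median without the genes on chromosomes 15 and X (−0.20) were added after seeing the data.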
